A study of Mus musculus with 2 samples.

Results

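The fatty acid desaturase genes of the Scd and Fads families were read in skin tumours of male mice after long-term ultraviolet B (UVB) irradiation. The 8 genes are Scd1, Scd2, Scd3, Scd4, Fads1, Fads2, Fads3 and Fads6, and they were taken as the non-control probes whose gene name in both array files was one of these. This gave 23 probes of 56605, and 8 of 37321 gene names. The groups were tumour RNA of P2ry6-/- mice and tumour RNA of wild-type mice, with 1 Agilent single-colour array for each. P2ry6 encodes a cell surface receptor for the nucleotide UDP. All mice were male, were 2 months old when irradiation began and received the same UVB course, which started at 180 mJ/cm2 for 10 weeks, was raised by 10 mJ/cm2 each week to 300 mJ/cm2 at week 22 and ended at week 40. Neither array shows skin without UVB, and how many tumours or mice were behind an RNA sample is unstated in the labels.

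Desaturases put double bonds into fatty acyl chains, using electrons that cytochrome b5 and its reductase pass to them. Scd enzymes turn saturated palmitoyl-CoA and stearoyl-CoA into the monounsaturated chains palmitoleate and oleate, which skin uses for triglycerides, wax esters and cholesterol esters, and mice without Scd1 have shrunken sebaceous glands and a dry, hairless coat. In polyunsaturated fatty acid synthesis, Fads2 and Fads1 act closer to the carboxyl end of chains that already hold a double bond. Fads2 starts the conversion of dietary linoleic and alpha-linolenic acid, and Fads1 forms arachidonic and eicosapentaenoic acid, from which eicosanoids are made.

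Probes near the end of closely related genes decide which paralogue is read, so the probes on which the Scd results turn are given here, 5′ to 3′, with their places on mm9 as the array files give them. All are on chromosome 19. The first Scd3 probe is shown whole, because the file lists it for Scd1 as well. Of the other 60-base probes the first 30 bases are shown.
Scd1 A_52_P682382, chr19:44469387-44469446, minus strand: actcctgggctaagtatctgacagtctcac
Scd2 A_51_P129464, chr19:44381024-44381083, plus strand: acatttggggatcctctgcagaggagtatt
Scd3 A_55_P2099594, chr19:44289995-44290054, plus strand: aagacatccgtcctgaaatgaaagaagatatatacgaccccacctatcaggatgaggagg
Scd3 A_55_P2727843, chr19:44316412-44316471, plus strand: ccgaaaagaagcacccatgttgtatagtgt
Scd3 A_55_P2512897, chr19:44316559-44316618, plus strand: ttgcttaacccttcttattactttactgtc
Scd3 A_55_P2052759, chr19:44318249-44318308, plus strand: ataaagtcaaccataggtcaagaggcagag
Scd4 A_55_P2011872, chr19:44420742-44420801, plus strand: tctgagaacacattgtgctgtgggggctcc
Scd4 A_55_P2538668, chr19:44421034-44421093, plus strand: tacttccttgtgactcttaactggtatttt
The longest run of bases that any of the 23 probes shared with a probe of another desaturase gene was 7 to 10 bases. No other probe on the array shared a run of 20 bases with any of them on either strand. The files give no transcript sequences, so cross-hybridisation to other transcripts was not tested.

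Signals were set on each array's own scale, as log2 values from which the 75th percentile of that array was subtracted, 327 signal units on the knockout-labelled array and 347 on the wild-type-labelled array. A level of 0 is that percentile, and a gene was called where the levels were at least 2-fold apart (1 log2 unit). P2ry6 itself was 2.44-fold higher on the array labelled as its knockout, at a level of 0.66 against −0.63 on the wild-type-labelled array. Which exons the knockout lacks is unstated in the labels, so its probes do not check the label, and the arrays are named by their labels below. Markers of basal and suprabasal keratinocytes were above background on both arrays (7 of 7 and 9 of 9). With 1 array per genotype there is no replicate, no test was run, and the number of arrays limits the precision. The measurable error is technical. Repeat spots of 1 probe gave differences with an SD of 0.12 log2 units (293 probes), and probes of 1 gene gave differences with an SD of 0.38 (6731 genes). Both arrays measured 19872 genes. On the knockout-labelled array 1002 of these (5.04%) were called lower and 957 (4.82%) called higher, 1959 (9.86%) in either direction, and the median over all was −0.06. Set on the array median, the counts were 1228 lower and 760 higher, and on 8 spike-in probes 3198 lower and 315 higher, since that scale moves every difference by −0.47.

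Scd1, the main desaturase of sebaceous glands and adult skin, was far lower on the knockout-labelled array. Its minus-strand probe read 1536 signal units on the knockout-labelled array and 19325 on the wild-type-labelled array, levels of 2.23 and 5.80. The difference was −3.57 log2 units, or 11.9-fold lower, with a scanner error of 0.20. This placed Scd1 26th from the lowest difference among the 19872 measured genes. Its other probe, A_55_P2743499 at chr19:44471140-44471199, is placed on the plus strand, opposite to the first,, so what it reads of the Scd1 mRNA is uncertain. It read 4.62 signal units on the knockout-labelled array, not well above background, and 57.2 on the wild-type-labelled array, which bounds it at at least 3.10-fold lower. Both probes were thus brighter on the wild-type-labelled array. In bulk RNA, fewer cells of a type and less RNA per cell cannot be told apart, here and for every gene below.

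Scd3, a desaturase of mouse skin that prefers palmitoyl-CoA, was lower as well, by an amount that depended on the probe. Along the gene, the first probe read 21.9 signal units on the knockout-labelled array and 239 on the wild-type-labelled array, a difference of −3.36. The second read 79.4 on the knockout-labelled array and 1545 on the wild-type-labelled array, a difference of −4.20. The third read 3.53 on the knockout-labelled array, not well above background, and 169 on the wild-type-labelled array, so it was at least 9.14-fold lower. The fourth, placed last along the plus strand, read 299 on the knockout-labelled array and 641 on the wild-type-labelled array, a difference of −1.02. All 4 probes were brighter on the wild-type-labelled array, and the last was the least different. The mean of the 3 probes measured on both arrays was −2.86 ± 1.65 (SD, n = 3 probes), or 7.25-fold lower, which placed Scd3 53rd from the lowest of the 19872 genes. The brightest probe was taken as the one with the highest mean of its 2 log2 levels. By that rule it is the fourth, which alone gives −1.02, although the second read higher on the wild-type-labelled array. Leaving out the probe that is also listed for Scd1 gives −2.61.

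Scd2, the form best known from brain and from newborn skin, lay much closer to 0. Its 1 probe read 7520 signal units on the knockout-labelled array and 11264 on the wild-type-labelled array, levels of 4.52 and 5.02. The difference of −0.50 (1.41-fold lower) was 1.33 times the SD between probes of a gene and did not reach 2-fold. The gap between the differences of Scd1 and Scd2 was 3.07 log2 units, and the gap between Scd3 and Scd2 was 2.36. Scd1 and Scd3 differed from each other by 0.71, less than the SD of 1.65 among the probes of Scd3.

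Scd4, first described in heart, had no settled direction. Probe A_55_P2011872 read 44.1 signal units on the knockout-labelled array and 28.6 on the wild-type-labelled array, a difference of 0.71 from weak signals. Probe A_55_P2538668 read 1372 on the knockout-labelled array and 1969 on the wild-type-labelled array, a difference of −0.44. The array file lists this brighter probe also for Ube2l6, Prss35 and 2610524H06Rik, so its signal cannot be given to Scd4. A further probe, A_52_P603237, was not well above background on either array. The mean over the 2 measured probes was 0.14 ± 0.81 (SD, n = 2 probes), which spans 0.

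**Figure D1:**
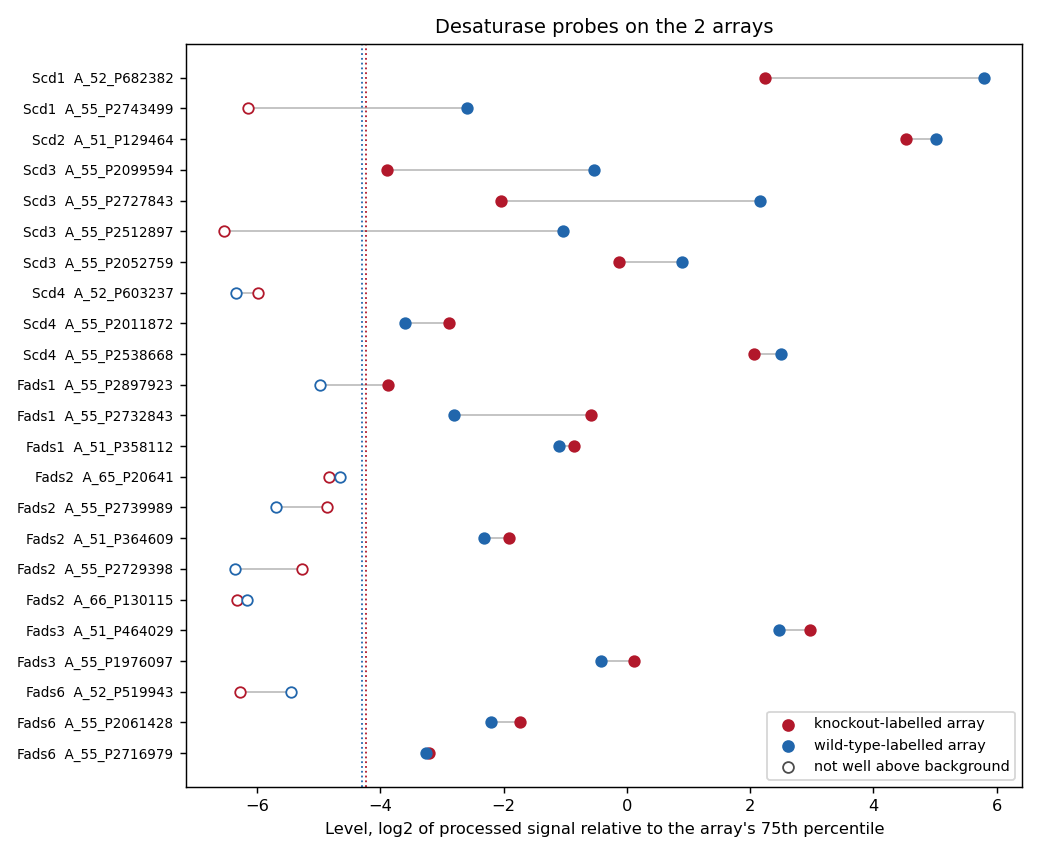
Level of each desaturase probe on the knockout-labelled (red) and wild-type-labelled (blue) arrays, as log2 of the processed signal relative to the array's 75th percentile, with dotted lines marking the dimmest signal that each array's scan marked as well above background and open points for signals that it did not mark so. The 6 probes of Scd1 and Scd3 all sit lower on the knockout-labelled array, with differences of −4.20 to −1.02 where both arrays measured them, whereas the measured Fads probes have differences of 0.05 to 2.22.

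The 4 Fads genes lay above 0 on this scale, beside a median of −0.06 over all measured genes. Of the 4, 1 was past 2-fold, where 4.82% of all measured genes were called higher. Relative to the spike-in probes, however, Fads2 and Fads6 turned to −0.06 and −0.21, so their direction depends on the scale, and Fads6 also turned to −0.10 with dim probes kept. Fads1, which forms arachidonic acid, was 2.35-fold higher, with a mean of 1.23 ± 1.39 (SD, n = 2 probes). Its probes disagreed in size. A_55_P2732843, at chr19:10261805-10261864 and designed on a cDNA clone, read 218 signal units on the knockout-labelled array and 49.8 on the wild-type-labelled array, a difference of 2.22. A_51_P358112, at chr19:10270530-10270589 and designed on the RefSeq mRNA, read 180 on the knockout-labelled array and 161 on the wild-type-labelled array, a difference of 0.25. The 2-fold call therefore rests on the first of these probes, and it ended under normexp background correction (0.83), on the spike-in scale (0.76) and with the brightest probe alone (0.25). The remaining probe, A_55_P2897923, was detected on the knockout-labelled array (22.1 signal units) and not on the wild-type-labelled array (11.0), at least 1.33-fold higher.

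Fads2, the entry enzyme of polyunsaturated fatty acid synthesis, was measured by 1 of its 5 probes. That probe, A_51_P364609, read 86.6 signal units on the knockout-labelled array and 69.3 on the wild-type-labelled array, a difference of 0.41. The other 4 Fads2 probes were not well above background on either array. Fads3, a relative that acts on sphingoid bases of ceramides, gave the closest agreement between probes. A_51_P464029 read 2560 on the knockout-labelled array and 1914 on the wild-type-labelled array, and A_55_P1976097 read 356 on the knockout-labelled and 260 on the wild-type-labelled array. Fads3 was thus 1.44-fold higher, by 0.52 ± 0.02 (SD, n = 2 probes), 1.39 times the SD between probes of a gene. On the spike-in scale it was 0.05. Fads6, an uncharacterised member with a desaturase domain on chromosome 11, had 2 measured probes. A_55_P2061428 read 98.7 on the knockout-labelled array and 75.2 on the wild-type-labelled array, and A_55_P2716979 read 35.1 on the knockout-labelled and 36.0 on the wild-type-labelled array. The mean difference was 0.26 ± 0.30 (SD, n = 2 probes), which does not leave 0.

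Across the 8 genes, 2 were called lower, where 5.04% of all measured genes were, and 1 was called higher, where 4.82% were. Calls in either direction were thus 3 of 8, against a background of 9.86%. The median difference was 0.20, beside −0.06 over all measured genes, and it turned to −0.27 on the spike-in scale, −0.09 under the stricter filter on dim probes and −0.09 with the brightest probe per gene. The Scd median was −1.68, which rests on Scd1 and Scd3, since Scd2 was at −0.50 and Scd4 at 0.14. The Fads median was 0.46, but Fads2 (−0.06) and Fads6 (−0.21) changed sign on the spike-in scale. The gap between Scd1 and the Fads genes ran from 3.83 log2 units for Fads6 to 4.80 for Fads1. Such a gap does not depend on which single value each array is scaled by.

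**Figure D2:**
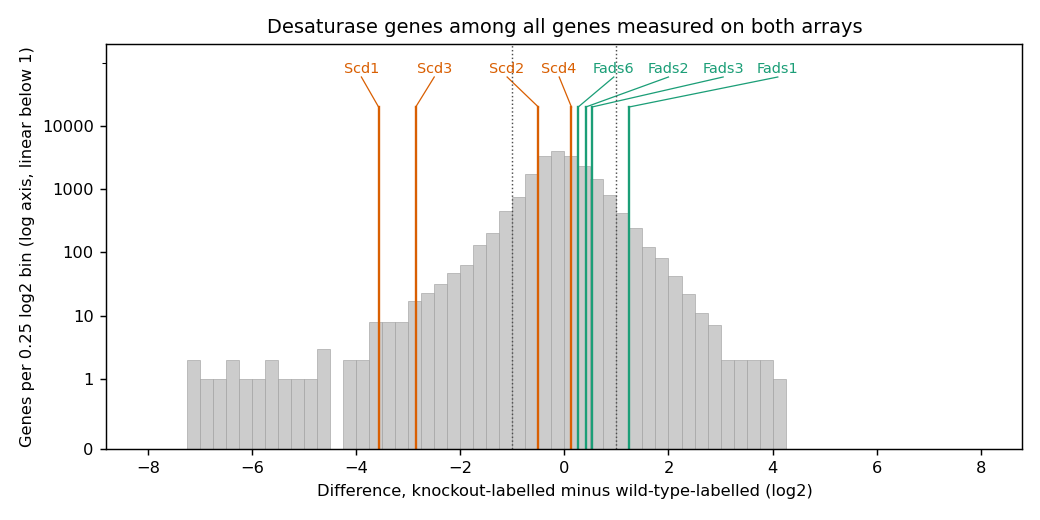
Number of genes per 0.25 log2 bin of the log2 difference (knockout-labelled minus wild-type-labelled array) over the 19872 genes measured on both arrays (grey bars, log axis that is linear below 1), with Scd genes in orange, Fads genes in green and dotted lines at 2-fold. Scd1 (−3.57) and Scd3 (−2.86) lie in the lower tail, and the other desaturases lie between −0.50 and 1.23.

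Scd1 to Scd4 lie side by side on chromosome 19, and Fads1 to Fads3 form a second cluster there, so the differences were also read by position. On the array coordinates the Scd probes came in the order Scd3, Scd2, Scd4, Scd1 over about 180 kb. The 2 genes that were far lower therefore stood at the ends, with Scd2 (−0.50) and Scd4 (0.14) between them. Among 4 other gene names with a probe within 100 kb, 3 were measured and 0 were called: Cwf19l1 at 0.17, Bloc1s2, a subunit of a lysosome-related organelle complex, at 0.03, and Cplx2, a complexin of vesicle release, at 0.63. The Cplx2 value is a mean over 2 probes (SD 0.18). The array file places 1 of them in the Scd interval and the other on chromosome 13. Around Fads1 to Fads3, 4 of 8 other genes were measured and 0 were called. These were the ferritin heavy chain gene Fth1 (0.27), Rab3il1 (0.44), the flap endonuclease gene Fen1 (−0.36) and Tmem258 (0.03). Around Fads6, 7 of 9 were measured and 1 was called, the proton channel gene Otop3 at −1.29. The others there were Nat9 (−0.36), Tmem104 (0.12), the ferredoxin reductase gene Fdxr (−0.16), Ush1g (−0.04), Otop2 (0.35) and Hid1 (0.11). Over all measured genes 9.86% were called in either direction, so few calls would be found among so few genes anywhere, and these counts do not set the neighbours apart.

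**Figure D3:**
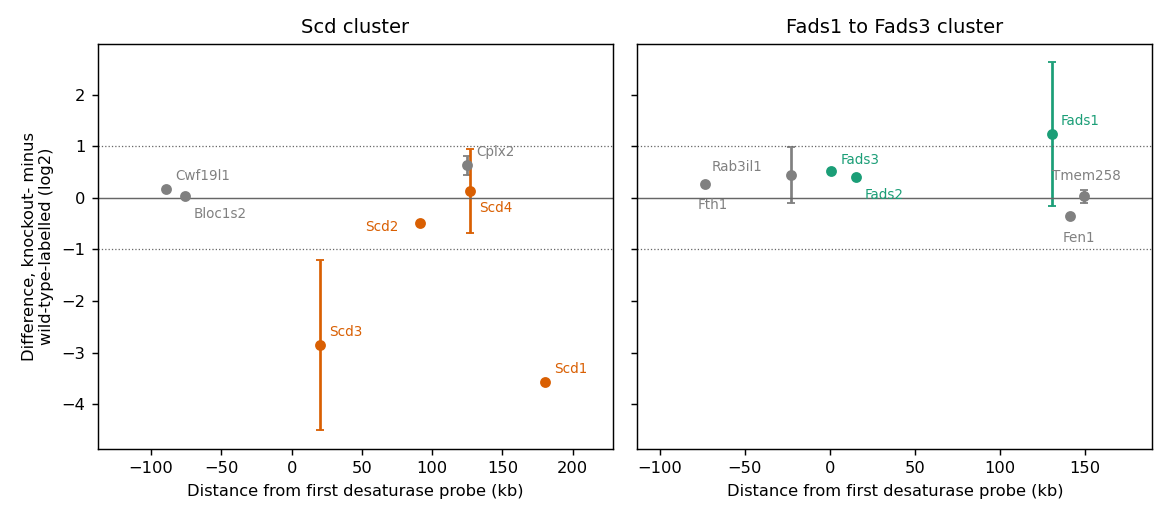
Log2 difference (knockout-labelled minus wild-type-labelled array) of genes measured on both arrays against the distance of their probes from the first desaturase probe of the cluster (kb). Error bars are the SD over the probes of a gene, where it has several. Scd1 and Scd3 lie below −1 (dotted), the genes around and between them lie from −0.50 to 0.63, and Fads1 lies above its neighbours with a wide probe spread.

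Scd3 and Scd4 lie in the same cluster, with Scd2 between them. Their mean differences were −2.86 and 0.14, but Scd4 had no settled direction, and the brightest probes gave −1.02 and −0.44. The 250 bases before their annotated starts (RefSeq, GRCm38.p6, plus strand) are set side by side. Promoters of 5 of the 8 genes were matched in the RefSeq table, those of Scd3, Scd4, Fads2, Fads3 and Fads6. Capitals mark the longest runs that the Scd3 and Scd4 windows share.
Scd3, chr19:44203038-44203287: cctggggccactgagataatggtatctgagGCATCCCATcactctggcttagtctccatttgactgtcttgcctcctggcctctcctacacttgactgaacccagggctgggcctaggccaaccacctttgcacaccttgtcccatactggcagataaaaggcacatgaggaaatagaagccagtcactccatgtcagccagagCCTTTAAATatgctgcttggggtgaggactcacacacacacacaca
Scd4, chr19:44333076-44333325: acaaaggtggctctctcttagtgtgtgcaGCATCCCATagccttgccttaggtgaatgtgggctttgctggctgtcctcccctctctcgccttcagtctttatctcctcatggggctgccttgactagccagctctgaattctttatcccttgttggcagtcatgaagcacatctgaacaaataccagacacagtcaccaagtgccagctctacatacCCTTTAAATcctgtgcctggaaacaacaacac
Both windows hold 2 shared runs of 9 bases, one beginning 46 bases before the start in Scd3 and 32 bases before it in Scd4. On both strands the windows were searched for 4 motifs, none of which lies within another. Of 32851 promoter windows of the same length, 33.8% held CCAAT, the box bound by NF-Y, and 1.05% held TCACNCCAC, a sterol regulatory element. AGGTCA, the core element of many nuclear receptors, stood in 14.0% of windows, and TATAAA, the core promoter box, in 12.4%. Neither the Scd3 nor the Scd4 window held any of the 4, nor did that of Fads2. The Fads3 window held CCAAT at 2 places and the Fads6 window AGGTCA at 2 places. These matches describe letters in a window and say nothing about binding.

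Genes that supply the saturated substrate of Scd enzymes were lower with Scd1 and Scd3. Of 10 genes 9 were measured, of which 5 were called lower, 0 were called higher and 4 were not called. Their median was −1.11, beside −0.06 over all genes. Elovl6, the elongase that makes stearoyl-CoA from palmitoyl-CoA, was lowest at −4.59. Acacb, a mitochondrial acetyl-CoA carboxylase, had a mean of −2.67 ± 3.85 (SD, n = 2 probes), so its probes disagreed. Acaca, the other acetyl-CoA carboxylase gene of the list, differed by −0.14 ± 0.24 (SD, n = 5 probes) and was not called. Fatty acid synthase, Fasn, differed by −1.50 and Me1, the malic enzyme that yields NADPH, by −1.26 ± 0.05 (SD, n = 2 probes).

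The machinery that passes electrons to desaturases differed far less than Scd1. Of 6 cytochrome b5 and reductase genes 5 were measured and 0 were called (median −0.35). Cyb5b and Cyb5a, the cytochromes b5 of the outer mitochondrial membrane and of the endoplasmic reticulum, differed by −0.76 and −0.35. The reductase genes Cyb5r4 and Cyb5r3 differed by −0.55 and 0.10. On the spike-in scale 2 of the 5 reached 2-fold lower, with a median of −0.82. The median was −0.06 with quantile normalization, −0.12 with loess and −0.07 in the authors' deposited table.

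Known regulators of desaturase genes were mostly less than 2-fold apart. Of 22 genes 21 were measured, of which 2 were called lower, 0 were called higher and 19 were not called. Their median of −0.16 turned to 0.05 with quantile normalization, 0.01 with loess and 0.05 in the authors' deposited table. Both genes that were called encode the sterol-sensing proteins that retain the SREBP precursors in the endoplasmic reticulum, Insig1 (−1.60) and Insig2 (−1.13 ± 0.11, SD, n = 3 probes). The transcription factor gene Cebpa differed by −0.84 and Mlx, the partner of the carbohydrate-responsive factor, by −0.68. Srebf1 and Pparg, whose products activate Scd1 transcription in liver and fat, were looked up after their values were seen and differed by 0.26 and 0.22.

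Enzymes that activate and elongate acyl chains were lower in part. Of 13 genes 11 were measured, of which 5 were called lower, 0 were called higher and 6 were not called (median −0.83). With quantile normalization, with loess and in the values of the authors' deposited table, 3 genes were called lower. The median became −0.40 with dim probes kept. Fads1 and Fads2, which act in the same polyunsaturated pathway, had differences of 1.23 and 0.41. The acyl-CoA synthetase gene Acsl1 differed by −1.43 and the dehydratase gene Hacd2 by −1.40. Elovl5, the elongase that acts between Fads2 and Fads1, differed by −1.33, and Elovl7 by −1.18.

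Enzymes that esterify desaturated chains were lower too. All 12 were measured, of which 7 were called lower, 0 were called higher and 5 were not called (median −1.16). The wax ester and diacylglycerol acyltransferase family genes Awat1, Dgat2l6 and Awat2 differed by −6.77, −6.39 and −2.11. Soat1, which makes cholesterol esters, differed by −2.92 ± 0.61 (SD, n = 4 probes).

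Enzymes that release or oxygenate polyunsaturated acyl chains were lower as well. Of 11 genes 10 were measured, of which 7 were called lower, 0 were called higher and 3 were not called (median −1.25). The lipoxygenase gene Alox8 differed by −3.96 and Pla2g4a, the phospholipase that frees arachidonic acid, by −2.75. Alox12b and Aloxe3, the lipoxygenases of the epidermal barrier, differed by −1.48 and −1.33. Of 8 desaturases and hydroxylases of sphingolipids and sterols 7 were measured, of which 3 were called lower, 0 were called higher and 4 were not called (median −0.999). They were led by Fa2h, which hydroxylates sphingolipid fatty acids, at −7.06 and the methylsterol oxidase gene Msmo1 at −1.69 ± 0.32 (SD, n = 3 probes). The ceramide desaturase genes Degs2 and Degs1 differed by −1.17 ± 1.87 (SD, n = 2 probes) and by −0.999, the last just short of a call.

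Sebaceous gland markers moved with Scd1 and Scd3. All 10 were measured on both arrays, of which 8 were called lower, 0 were called higher and 2 were not called (median −3.63). The stricter filter on dim probes left 7 called lower and a median of −2.11. Keeping dim probes gave 7 called lower, 1 called higher and a median of −2.65. Their summed level, relative to the 75th percentile, was 51.8 on the knockout-labelled array and 228 on the wild-type-labelled array. Fa2h (−7.06), Awat1 (−6.77), the elongase gene Elovl3 (−6.65) and Dgat2l6 (−6.39) were the most different. On the knockout-labelled array the level of Dgat2l6 was −3.42, where the dimmest detected signal stood at −4.23. The 2 markers not called were Krt79 (−0.40 ± 0.14, SD, n = 2 probes) and Pparg (0.22). This list shares Awat1, Awat2 and Dgat2l6 with the esterification genes, Fa2h with the hydroxylases and Pparg with the regulators. The part of the gland markers in the Scd result was not tested. Suprabasal keratinocyte markers were lower by less, with 5 of 9 called lower, 0 called higher and −1.37 as their median. Their summed level was 955 on the knockout-labelled array and 1747 on the wild-type-labelled array. The most different were the transglutaminase gene Tgm3 (−2.17 ± 2.18, SD, n = 2 probes), Casp14 (−1.85), Dsg1a (−1.66) and the keratin gene Krt1 (−1.62).

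Adipocytes, which also express Scd1, were represented by part of their markers. Of 10 markers 5 were measured, with 3 called lower and 0 called higher (median −1.67, or −0.13 with dim probes kept). Their summed level was 10.6 on the knockout-labelled array and 35.5 on the wild-type-labelled array. Most of it was Fabp4, without which it was 1.17 on the knockout-labelled and 5.37 on the wild-type-labelled array. Plin4, Cidec, Fabp4 and Lipe differed by −3.98, −3.34, −1.67 and −0.76. The defining markers Adipoq, Plin1, Cfd, Retn and Car3 were not well above background on either array.

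Other cell types were mixed. Basal keratinocyte markers had 0 of 7 called lower and 1 called higher, Krt5 (1.66), with a median of 0.05 that turned to −0.05 on the array median and −0.42 on the spike-in scale. The summed level was 1370 on the knockout-labelled array and 1002 on the wild-type-labelled array, and without Krt5 it was 844 on the knockout-labelled and 836 on the wild-type-labelled array. Trp63, Col17a1 and Itgb4 differed by 0.48, −0.41 and 0.32. Fibroblast markers had 0 of 8 called lower and 1 called higher, Dpt (1.32), with a median of 0.15 that turned to −0.32 on the spike-in scale and −0.11 with the brightest probe per gene. The call of Dpt ended under normexp correction and on the spike-in scale. Pdgfra, Dcn and Pdgfrb differed by 0.58, −0.50 and 0.47. Macrophage markers had 3 of 7 measured genes called higher, Cx3cr1 (2.78), Fcgr1 (1.71) and Mertk (1.35), and 1 called lower, Mrc1 (−1.07). Normexp correction left 1 called higher and 0 called lower, and the spike-in scale left 2 called higher. Cd163, a marker of resident macrophages, was detected on the wild-type-labelled array alone, at least 1.66-fold lower. Among Schwann cell and myelin markers, 5 of 6 were measured, with S100b at 2.60, Mbp at −2.21 and Pmp22 at −0.78. Sox10, a transcription factor of these cells, was detected on the wild-type-labelled array alone and so at least 2.12-fold lower.

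**Figure D4:**
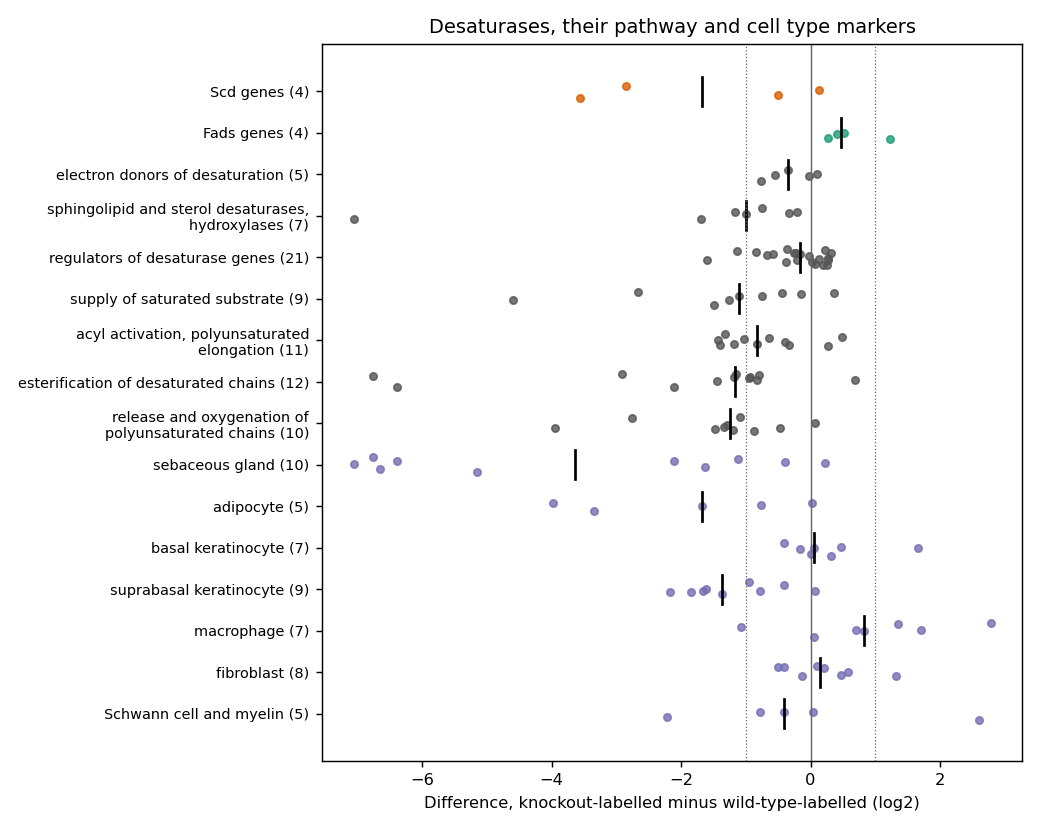
Log2 difference (knockout-labelled minus wild-type-labelled array) of each measured gene in the Scd and Fads families, in 7 pathway lists (grey) and in 7 lists of cell type markers (purple), with the median as a black bar, the number measured in brackets and dotted lines at 2-fold. The Scd genes spread from −3.57 to 0.14, the Fads genes lie from 0.26 to 1.23, and the sebaceous gland markers reach −7.06.

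The 4 genes with an established symbol whose difference was nearest that of Scd1 were the fatty acid transporter gene Cd36 (−3.56), Skint1 (−3.58), the carnitine acetyltransferase gene Crat (−3.54) and the hyaluronan synthase gene Has3 (−3.49). Likeness here is the gap between 2 differences, at most 0.08 log2 units, over 2 arrays. It ranks size alone.

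**Figure D5:**
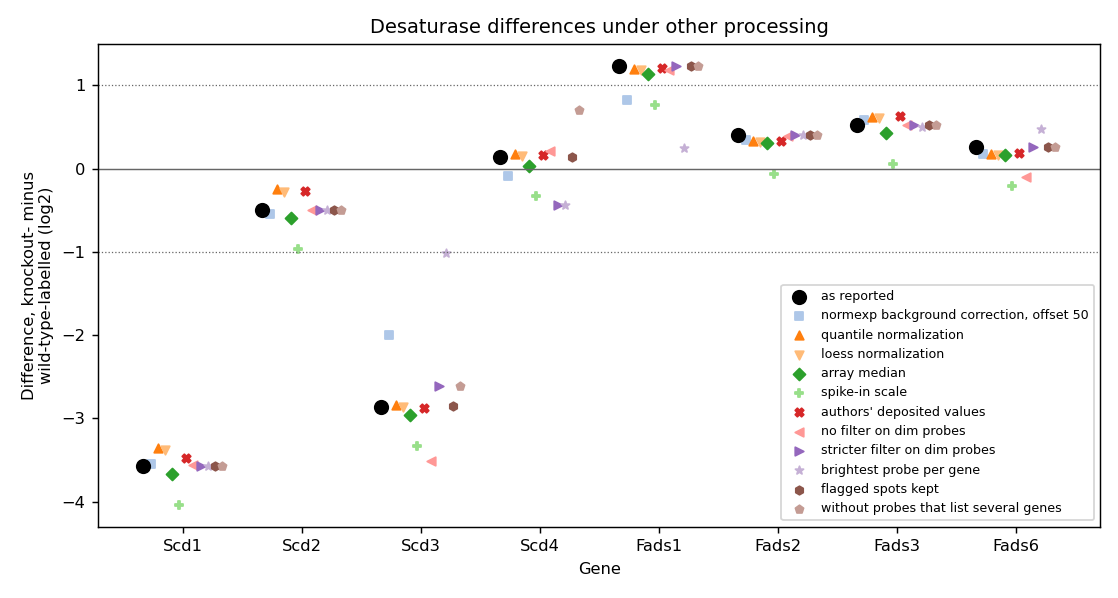
Log2 difference (knockout-labelled minus wild-type-labelled array) of each desaturase gene as reported (black) and under 11 alternatives, with dotted lines at 2-fold. Scd1 stays between −4.04 and −3.35 and Scd3 between −3.52 and −1.02, whereas Scd4, Fads2 and Fads6 have values on both sides of 0 and Fads1 ranges from 0.25 to 1.23.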

How the data were processed

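Total RNA of 1 tumour sample per genotype was labelled with Cy3 from 0.2 µg of RNA, per the labels' protocols. The authors extracted spot intensity with Agilent Feature Extraction 10.7.1.1, per the submitters' processing notes, with background subtraction and detrending and no normalization between arrays, per the file headers. The authors also deposited log2 values of the same arrays, whose columns hold the same sorted values, and these served as an alternative. Control spots and spots that the scanner software marked as outliers on either array (105 on the knockout-labelled and 102 on the wild-type-labelled array) were left out. Spots of a probe were averaged on the log2 scale, and the 75th percentile of these probe means on the array was then subtracted. A gene's value was the mean over its probes well above background on both arrays, by the scanner software's mark. A gene detected on 1 array has a bound on its fold, taken against the detection floor of the other array (its dimmest detected probe) or the probe's own level there where that was higher. Symbols were updated through RefSeq accessions in a GRCm38.p6 gene table, used for names alone (1535 updated, 31459 kept, 23611 not matched). Calculations used Python 3.11.15 and, for normexp, quantile and loess normalization, limma 3.58.1 in R 4.3.3. The steps were tested on simulated data. Named genes were the desaturases, P2ry6, up to 4 genes of each list by size of difference, genes with a bound of at least 2-fold, genes within 100 kb, and the 4 nearest in difference to the most different desaturase. Srebf1, Pparg, Acaca and Krt79 were added after their values were seen. The genes and lists were chosen with earlier results of these data known.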

Additional observations from a re-analysis of the deposited data

How the results depend on the processing

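No paired analysis was possible because each genotype has 1 array, and no replicate could be left out. The count of 2 desaturases at least 2-fold lower stayed at 2 under all 11 alternatives, of which leaving out probes that list several genes was chosen after seeing the data. The count of 1 higher, Fads1, became 0 under normexp background correction, on the spike-in scale and with the brightest probe per gene. The median of the 8 genes, 0.20, became −0.27 on the spike-in scale, which lowers all values alike by construction. It also turned to −0.09 with a stricter cutoff for dim probes and −0.09 when the brightest probe stood for a gene, and was 0.04 under normexp correction and 0.05 with dim probes kept. Of the values of single desaturases under alternatives, 72 moved by less than the SD between probes of a gene and 16 by more. Among the latter, Scd3 became −1.99 under normexp correction and −3.52 with dim probes kept, and Scd4 became −0.44 under the stricter filter and 0.71 without the probe that lists several genes. Of the list medians and counts, 425 stayed within that SD or within 1.5 times and 37 moved. The 425 include those without probes that list several genes, which dropped desaturase probes alone and so could not move a list. Over all genes, normexp correction left 578 lower and 368 higher, and keeping dim probes gave 2135 lower and 2244 higher. The cause of these shifts was not tested. Weak signals limit Scd3, Scd4, Fads1, Fads2 and Fads6, whose measured probes included ones under 100 signal units, among them probes that carry the 2-fold calls of Scd3 and Fads1.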
